A study of Mus musculus with 12 samples.

Results

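Tyrobp, Trem2, Fcer1g, Fcgr3, Fcgr1, Fcgr2b, Clec7a, Cd14, Tlr2 and Axl encode innate immune receptors and 2 signalling adaptors. They were taken by symbol from the annotation of the array platform, which assigns 15 probe sets to these 10 genes, out of 22626 probe sets that are not controls and 12393 genes with a single-symbol probe set. RNA of whole cerebellum from BALB/c mice, labelled as individual animals, was hybridised to 12 Affymetrix arrays. The 4 groups of 3 animals were Npc1-/- (null) at postnatal day 49 (P49), Npc1+/+ (wild type) at P49, null at P21 and wild type at P21. No animal was treated, and the labels name neither the allele nor a further transgene. Npc1 moves cholesterol out of late endosomes and lysosomes, and its loss underlies Niemann-Pick disease type C. The comparisons address how null and wild-type cerebella differ at each age and whether that difference changes with age.

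In the brain most of these receptors are carried mainly by microglia and other macrophages. Tyrobp (DAP12) and Fcer1g (the common Fc receptor gamma chain) are short transmembrane adaptors that bind no ligand, and each carries an immunoreceptor tyrosine-based activation motif (ITAM) that recruits the kinase Syk once a partner receptor is engaged. Trem2 binds lipids and lipoproteins and signals through Tyrobp, the activating Fc receptors Fcgr1 and Fcgr3 bind IgG and signal through Fcer1g, and Fcgr2b is the inhibitory IgG receptor. Clec7a (Dectin-1) binds beta-glucans and has an ITAM-like motif of its own, Cd14 and Tlr2 bind bacterial lipids and lipoproteins, and Axl is a receptor tyrosine kinase for Gas6, which bridges it to phosphatidylserine on dying cells.

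RefSeq promoter entries (build GRCm38.p6) were matched for 8 of the 10 genes. Tyrobp and Cd14 are named without one. The 250 bases before the start are shown for Trem2, Fcer1g, Fcgr3 and Clec7a, the genes with an entry that differed most between null and wild-type cerebella at P49, each 5′ to 3′ on the strand of its gene. Capitals mark GAGGAA or its reverse complement TTCCTC, a core bound by PU.1, the transcription factor of the macrophage lineage.
Trem2: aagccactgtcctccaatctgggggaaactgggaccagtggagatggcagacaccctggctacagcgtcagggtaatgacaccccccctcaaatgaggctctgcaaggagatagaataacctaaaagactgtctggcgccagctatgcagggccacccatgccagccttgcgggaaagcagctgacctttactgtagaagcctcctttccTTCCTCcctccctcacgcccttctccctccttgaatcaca
Fcer1g: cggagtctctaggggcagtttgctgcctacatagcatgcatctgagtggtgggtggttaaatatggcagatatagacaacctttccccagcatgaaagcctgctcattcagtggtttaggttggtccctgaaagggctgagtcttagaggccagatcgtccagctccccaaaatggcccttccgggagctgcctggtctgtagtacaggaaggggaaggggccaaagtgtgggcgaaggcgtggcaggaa
Fcgr3: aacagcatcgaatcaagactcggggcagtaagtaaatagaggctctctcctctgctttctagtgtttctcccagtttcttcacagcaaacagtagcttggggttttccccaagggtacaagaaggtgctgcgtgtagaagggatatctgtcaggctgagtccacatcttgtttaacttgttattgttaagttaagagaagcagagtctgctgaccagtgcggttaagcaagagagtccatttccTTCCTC
Clec7a: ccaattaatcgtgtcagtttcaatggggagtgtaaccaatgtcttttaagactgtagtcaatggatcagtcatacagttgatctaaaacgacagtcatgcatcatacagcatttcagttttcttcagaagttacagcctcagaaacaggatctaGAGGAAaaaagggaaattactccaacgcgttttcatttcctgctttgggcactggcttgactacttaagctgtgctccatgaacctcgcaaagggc
These windows lie at chr17:48346151-48346400 on the plus strand for Trem2, and on the minus strand at chr1:171234350-171234599 for Fcer1g, chr1:171059404-171059653 for Fcgr3 and chr6:129472780-129473029 for Clec7a. On either strand the 6 letters occurred in 5 of the 8 windows, those of Trem2, Fcgr3, Fcgr1, Clec7a and Axl, and not in those of Fcer1g, Fcgr2b and Tlr2. The first base of the match lay 40 bases before the start in Trem2, 6 bases before it in Fcgr3 and 96 bases before it in Clec7a. By comparison, 6252 of 27025 gene promoters of the same length (23.13%) held a match, so the letters are common. A match describes the sequence and not binding of a factor.

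Values below are log2(intensity + 16) after quantile normalization, where 1 unit is a doubling, and differences are given ± the standard error of limma with 3 animals a group. Null arrays read lower than wild-type arrays for Npc1. It was 10.53, 9.96 and 9.88 in null P49 cerebella against 11.35, 11.57 and 11.75 in wild-type P49 cerebella, and 10.12, 8.25 and 9.65 in null P21 cerebella against 11.06, 11.32 and 11.48 in wild-type P21 cerebella. The differences of -1.43 ± 0.38 at P49 (limma, adjusted p = 0.102) and -1.95 ± 0.38 at P21 (adjusted p = 0.130) missed the threshold of 0.05. All 11 measured cerebellar markers lay between the 66.86th and 99.90th percentile of probe sets, and 8 of 9 measured markers of other brain regions lay below the 40th. Sex-linked genes went against the sex label on 4 arrays. Xist was at 15.63 on null P49 replicate 1, the only array labelled male, and at 15.61 to 15.86 on 8 further arrays. It was 13.01 and 13.36 on replicates 2 and 3 of null P21 and 9.28 on replicate 2 of wild-type P21, all labelled female. The Y-linked Eif2s3y was 7.93, 9.25, 12.67 and 12.72 on those 4 arrays in the same order. Null P21 replicates 2 and 3 thus carried both Xist and Y-linked signal. Whether each holds RNA of 1 animal was not tested. Results are given with them, and again for the 8 other arrays (2 null P49, 3 wild-type P49, 1 null P21 and 2 wild-type P21) where the call differs. Detection calls were not used here. As a guide to readings without a transcript, 7 Y-linked probe sets on the 9 arrays at the high Xist level read 4.35 to 8.91 with a median of 7.07. Probe sets differ in background, so this is a guide and not a limit.

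At P49 all 10 receptors and adaptors were higher in null than in wild-type cerebella by the probe set that stands for each gene. Each gene was counted by its probe set with the highest mean over all 12 arrays, null P49 included. For Trem2 the null P49 arrays decided that choice, and its other probe set was not called. Counted so, all 10 genes had every null value above every wild-type value, against 9.07% of all probe sets. The adjusted p was under 0.05 for 8 of the 10, all rises, against 0.941% of all probe sets that rose and 0.468% that fell. Over all 15 probe sets of these genes, 11 were called as rises and 13 were higher in null without overlap. Trem2 1421226_at (-0.10) and Axl 1438621_x_at (-0.68) were lower in null, without a call. The median difference over the 10 genes was 2.27, from 0.70 for Fcgr1 to 5.26 for Trem2, while the median over all probe sets was -0.02. On simulated data for this comparison, changes of 1 log2 unit were called in 38% of 50 probe sets, and changes of 2, 3 and 4 units in 76%, 86% and 92% of 50 each. In whole-tissue RNA, more cells of a type and more RNA per cell cannot be told apart.

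**Figure D1:**
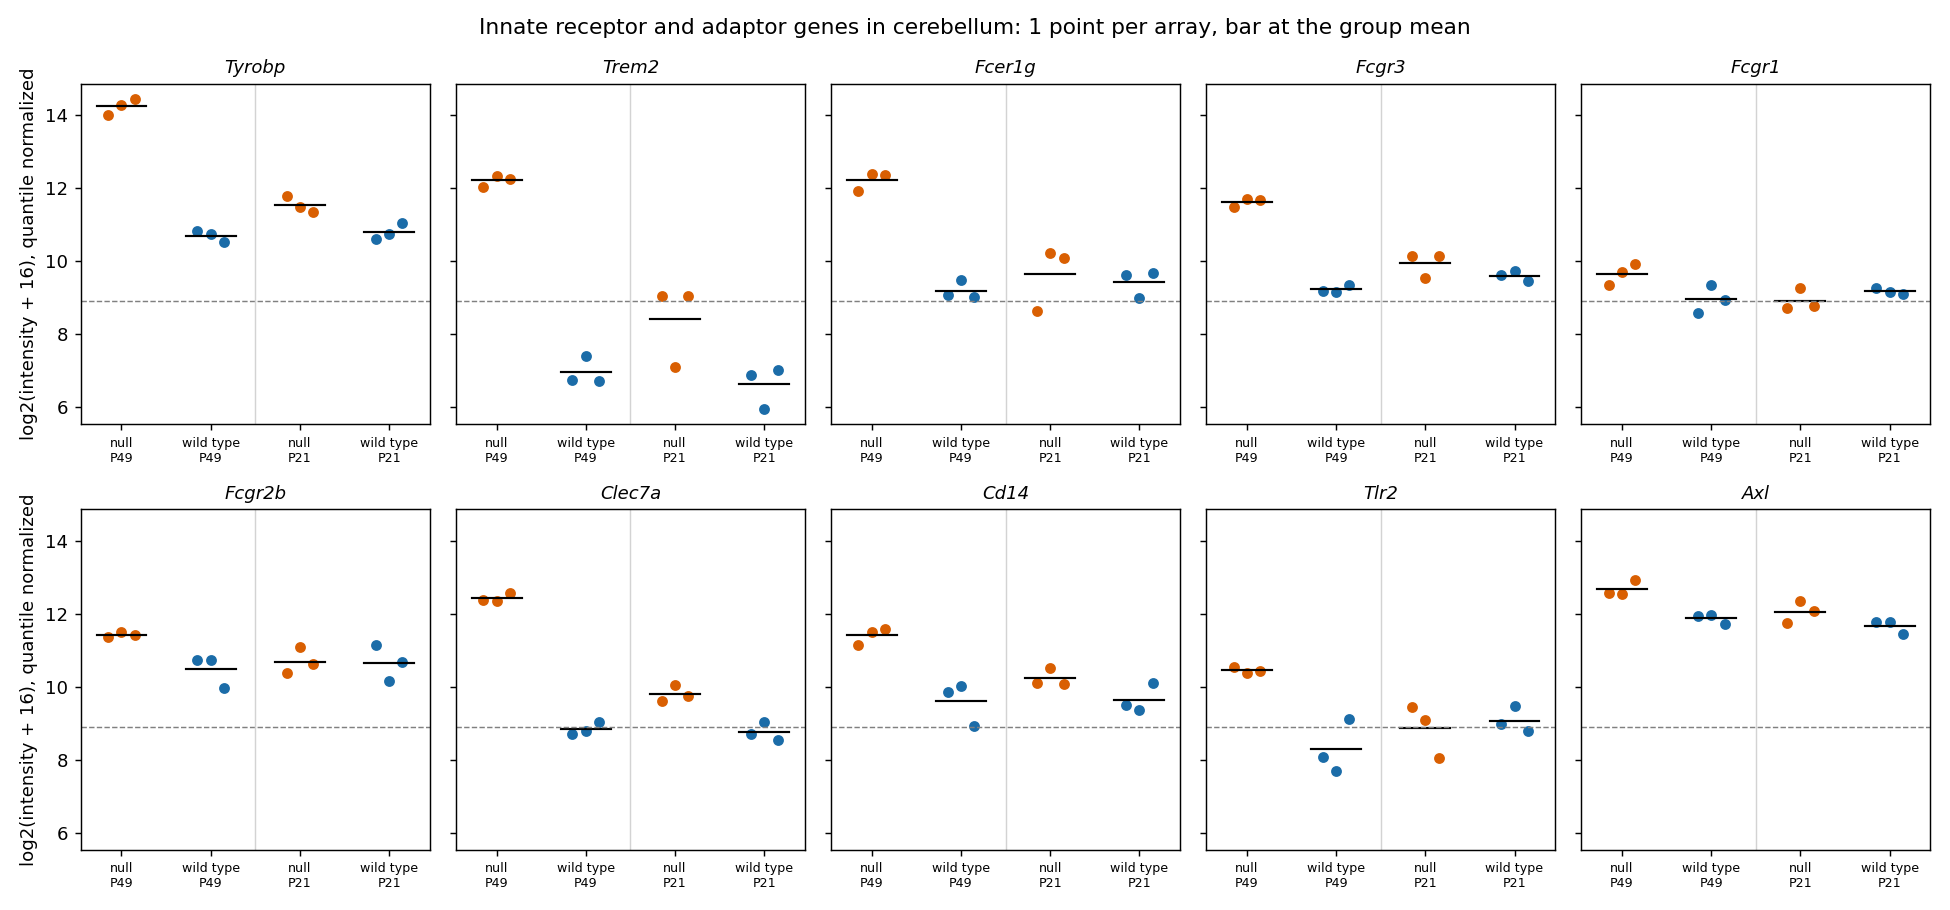
Normalized log2(intensity + 16) of each gene on each of the 12 arrays, by its probe set with the highest mean, with null P49, wild type P49, null P21 and wild type P21 from left to right in each panel and a bar at each group mean. In every panel the 3 null P49 points lie above the 3 wild-type P49 points, and the dashed line at 8.91 is the highest reading of the Y-linked probe sets on arrays at the high Xist level, a guide to readings without a transcript.

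Tyrobp, the adaptor, had the smallest p of all 22626 probe sets at P49. It read 14.01, 14.30 and 14.45 in null P49 cerebella against 10.83, 10.75 and 10.52 in wild-type P49 cerebella, and 11.80, 11.50 and 11.35 in null P21 cerebella against 10.60, 10.74 and 11.06 in wild-type P21 cerebella. Null values lay above wild-type values at both ages without overlap, by a far wider gap at P49. The difference at P49 was 3.55 ± 0.17, or 11.7-fold (limma, adjusted p = 1.64e-07). At P21 it was 0.75 ± 0.17, with a 95% interval of 0.37 to 1.12 and an adjusted p of 0.293.

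Trem2, the lipid receptor that depends on Tyrobp, showed the largest fitted difference of the 10 genes. Probe set 1421792_s_at read 12.05, 12.35 and 12.26 in null P49 cerebella against 6.75, 7.41 and 6.71 in wild-type P49 cerebella. All wild-type arrays of both ages, the P21 ones at 6.90, 5.97 and 7.02, fell within the range of the Y-linked readings. The fitted 5.26 ± 0.53 at P49 (limma, adjusted p = 7.64e-05) therefore starts from readings at which a transcript may not be measurable, and its size is uncertain. The null P21 arrays were split, with 9.06 on replicates 1 and 3 and 7.11 on replicate 2, all above wild-type P21 (1.78 ± 0.53, adjusted p = 0.456). A further probe set for Trem2, 1421226_at, did not show the rise. It read 7.44, 8.88 and 7.72 in null P49 cerebella against 9.14, 9.15 and 6.06 in wild-type P49 cerebella, with a difference of -0.10 ± 0.81 (adjusted p = 0.993). Its readings were dim on every array, none above 9.15, so the P49 rise of Trem2 rests on 1 of its 2 probe sets. Which of the 2 has the higher mean was decided by the null P49 arrays. Means of 1421792_s_at were 12.22 in null P49, 6.96 in wild-type P49, 8.41 in null P21 and 6.63 in wild-type P21. Those of 1421226_at were 8.01, 8.12, 8.55 and 6.21 in the same order. With both probe sets averaged the P49 difference was 2.58 and kept its call.

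Fcer1g, the gamma chain shared by the activating Fc receptors, was higher in null cerebella at P49. It read 11.92, 12.40 and 12.36 in null P49 cerebella against 9.08, 9.48 and 9.04 in wild-type P49 cerebella, 3.03 ± 0.38 apart or 8.14-fold (limma, adjusted p = 0.000587). At P21 the groups overlapped, with 8.64, 10.23 and 10.09 in null P21 cerebella against 9.64, 9.01 and 9.69 in wild-type P21 cerebella. Null P21 replicate 1 was the lowest of all 12 arrays for this gene. The P21 difference was 0.21 ± 0.38 (adjusted p = 0.897), and without the 4 arrays against their sex label it was -1.03, with that replicate as the only null P21 array.

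Among the activating IgG receptors, which pair with Fcer1g, Fcgr3 rose at P49 and Fcgr1 missed the threshold. Their relative Fcgr4, from the list of related receptors and named after its value was seen, differed by 1.41 ± 0.76 (limma, adjusted p = 0.639). Fcgr3, the low-affinity activating receptor, read 11.49, 11.71 and 11.69 in null P49 cerebella against 9.20, 9.16 and 9.36 in wild-type P49 cerebella. Its spread within each P49 group was small, with an SD of 0.12 in null and 0.11 in wild type, and the difference was 2.39 ± 0.24, or 5.25-fold (limma, adjusted p = 7.13e-05). At P21 null values of 10.15, 9.55 and 10.15 overlapped wild-type values of 9.63, 9.74 and 9.45 (0.34 ± 0.24, adjusted p = 0.710). Fcgr1, the high-affinity receptor, stayed dim. It read 9.34, 9.71 and 9.93 in null P49 cerebella against 8.59, 9.34 and 8.94 in wild-type P49 cerebella, a difference of 0.70 ± 0.33 that missed the threshold (adjusted p = 0.525). The lowest null P49 value and the highest wild-type P49 value of Fcgr1 nearly touched. Its P21 values were 8.72, 9.26 and 8.79 in null and 9.28, 9.16 and 9.12 in wild-type cerebella, with a difference of -0.26 ± 0.33 (adjusted p = 0.846).

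Fcgr2b, the inhibitory receptor, has 4 probe sets that gave different sizes of change. The brightest, 1435476_a_at, by which the gene is counted, read 11.37, 11.52 and 11.42 in null P49 cerebella against 10.76, 10.74 and 9.98 in wild-type P49 cerebella. That difference of 0.94 ± 0.28 missed the threshold (limma, adjusted p = 0.185), although the groups did not overlap. The other 3 probe sets were called at P49. Probe set 1435477_s_at read 11.14, 11.85 and 11.93 in null P49 cerebella against 8.94, 8.15 and 8.84 in wild-type P49 cerebella (3.00 ± 0.40, adjusted p = 0.00100). For 1451941_a_at the difference was 3.91 ± 0.73 (adjusted p = 0.0127), with wild-type P49 readings of 9.20, 5.50 and 6.03 that scattered widely, and for 1455332_x_at it was 1.39 ± 0.31 (adjusted p = 0.0453). With the 4 averaged, Fcgr2b differed by 2.31 (adjusted p = 0.000790). At P21 only 1435477_s_at separated the genotypes, at 9.59, 9.42 and 9.56 in null against 7.01, 8.52 and 8.05 in wild-type cerebella (1.67 ± 0.40, adjusted p = 0.312). Fcgr2b, Fcgr4 and Fcgr3 are neighbouring protein-coding genes of similar sequence on chromosome 1, so probe sets of one may also read another, and probe sets with the suffixes _s_at and _x_at can by design bind more than 1 transcript.

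**Figure D2:**
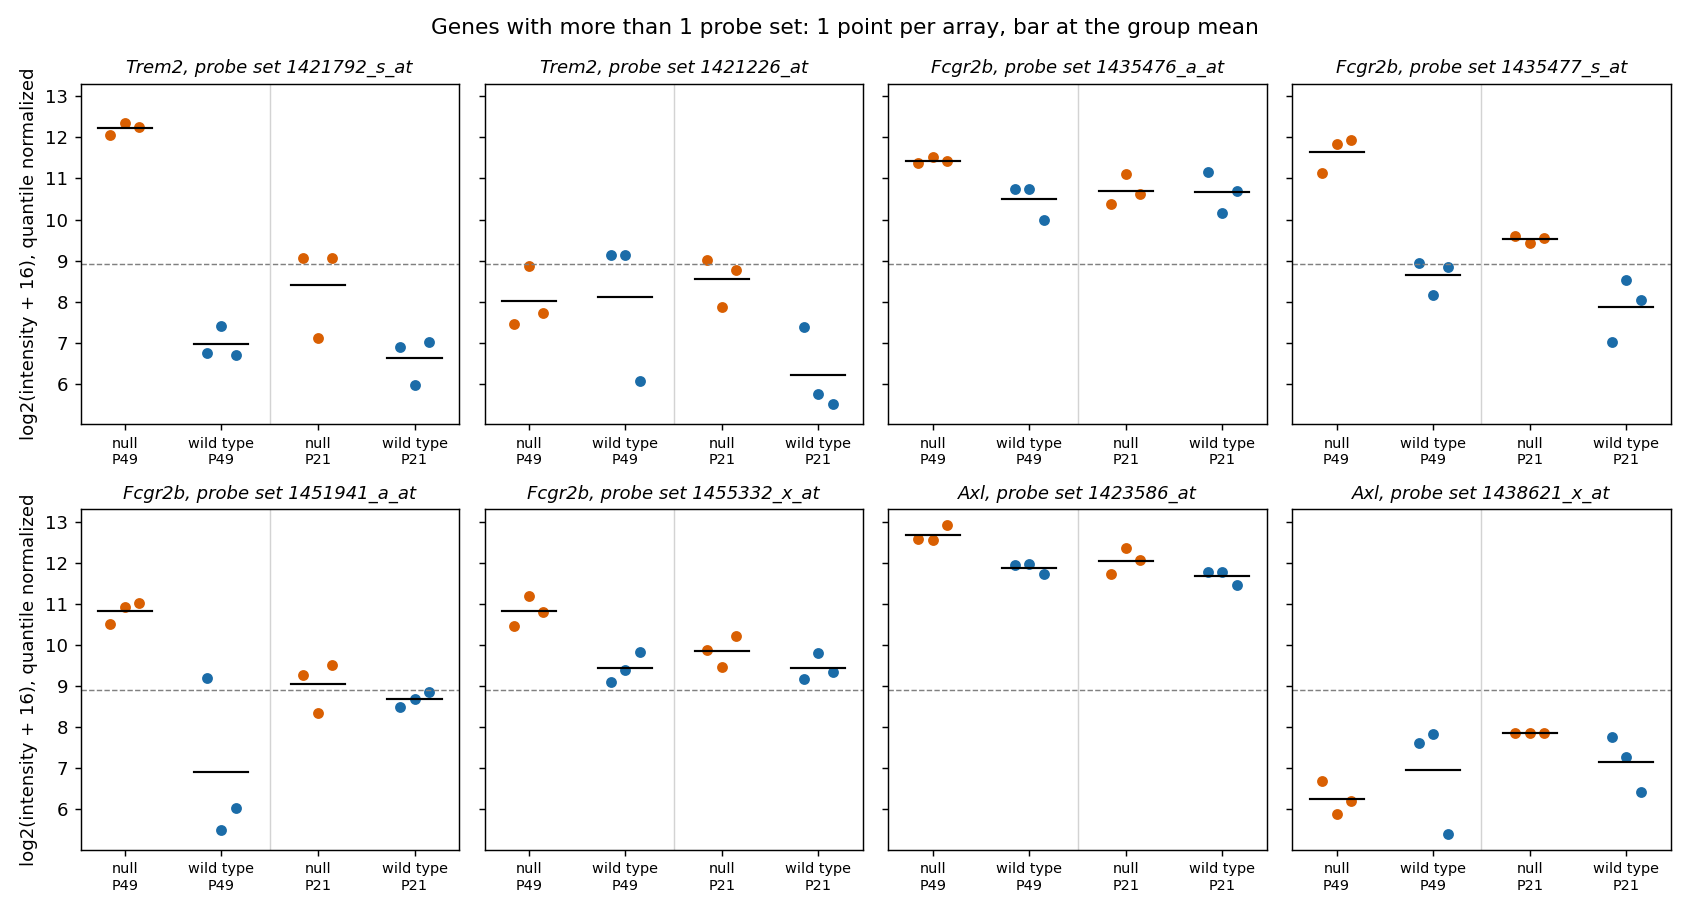
Normalized log2(intensity + 16) on each array for every probe set of Trem2 (2), Fcgr2b (4) and Axl (2), with null P49, wild type P49, null P21 and wild type P21 from left to right, bars at group means and the dashed guide at 8.91. Trem2 1421792_s_at rises to a mean of 12.22 in null P49 while 1421226_at does not separate the P49 groups, and all 4 Fcgr2b probe sets separate them by different amounts.

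Clec7a, the beta-glucan receptor, was higher in null cerebella at P49, and its P21 values lay higher without a call. It read 12.40, 12.37 and 12.58 in null P49 cerebella against 8.72, 8.79 and 9.04 in wild-type P49 cerebella, and 9.62, 10.06 and 9.75 in null P21 cerebella against 8.71, 9.03 and 8.55 in wild-type P21 cerebella. The groups did not overlap at either age, and the gap was wider at P49. The difference was 3.60 ± 0.24 at P49, or 12.2-fold (limma, adjusted p = 1.79e-06), and 1.04 ± 0.24 at P21 (adjusted p = 0.303). Since 2 of 3 wild-type arrays at each age lay within the Y-linked range, the fold is uncertain in size for Clec7a too.

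The pair that senses bacterial lipids rose at P49 from scattered wild-type levels. Cd14, which hands lipopolysaccharide to Tlr4, read 11.16, 11.52 and 11.59 in null P49 cerebella against 9.86, 10.04 and 8.93 in wild-type P49 cerebella (1.82 ± 0.31, limma adjusted p = 0.00760). Tlr2, a receptor for lipoproteins, read 10.56, 10.38 and 10.44 in null P49 cerebella against 8.07, 7.70 and 9.13 in wild-type P49 cerebella (2.16 ± 0.44, adjusted p = 0.0242). In both genes the null P49 arrays lay close together and the wild-type P49 arrays were spread, with an SD of 0.09 in null and 0.74 in wild type for Tlr2. At P21 Cd14 read 10.12, 10.53 and 10.08 in null cerebella against 9.50, 9.37 and 10.11 in wild-type cerebella (0.59 ± 0.31, adjusted p = 0.643). Tlr2 read 9.47, 9.11 and 8.06 in null P21 cerebella against 8.99, 9.47 and 8.79 in wild-type P21 cerebella (-0.21 ± 0.44, adjusted p = 0.910). The P21 groups overlapped in both genes. Of the wild-type P49 arrays 2 of 3 read Tlr2 within the Y-linked range, so the size of its rise is uncertain. The P49 call of Cd14 was lost without null P49 replicate 2 (adjusted p = 0.0572) or 3 (0.0586), and that of Tlr2 without any of the 3 null P49 arrays (0.0866, 0.107 and 0.112) or without wild-type P49 replicate 1 (0.112) or 2 (0.117).

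Axl, the receptor kinase for Gas6, was bright in every group and moved least of the called genes. Probe set 1423586_at read 12.59, 12.57 and 12.93 in null P49 cerebella against 11.96, 11.98 and 11.73 in wild-type P49 cerebella (0.80 ± 0.17 or 1.74-fold, limma adjusted p = 0.0331). At P21 it read 11.75, 12.37 and 12.07 in null cerebella against 11.78, 11.78 and 11.46 in wild-type cerebella (0.39 ± 0.17, adjusted p = 0.606), with overlap. The P49 call was lost without any 1 of the 6 P49 arrays, with adjusted p from 0.0643 to 0.214, and without wild-type P21 replicate 2 (0.0526). The second Axl probe set, 1438621_x_at, read no higher than 7.86 on any array and gave -0.68 ± 0.65 at P49 (adjusted p = 0.856). With both probe sets averaged the difference was 0.06 (adjusted p = 0.985), so the rise of Axl rests on its bright probe set.

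At P21 none of the 10 genes was called, against 0.0265% of all probe sets that rose and 0.00442% that fell. By unadjusted p under 0.05 limma marked 4 genes, Tyrobp, Trem2, Clec7a and Axl, and 1807 of all probe sets. For 3 genes, Tyrobp, Trem2 and Clec7a, the null P21 values lay above all wild-type P21 values, against 5.83% of all probe sets. The median difference was 0.36 over the 10 genes, 8 of them positive, and -0.0026 over all probe sets. Among measured red blood cell markers, null P21 replicate 1 stood apart in Alas2 and Slc4a1 (10.85). Hba-a1 (6.86) and Epb42 (5.63) were not raised on that array. The 4 measured summed to 16705 on it, 3420 and 4049 on the other null P21 arrays and 1596 to 3558 on wild-type P21 arrays, most of it Alas2 (13.84 on that array), the erythroid enzyme of haem synthesis. At P49 the sums were 950 to 1368 in null against 1056 to 1452 in wild-type cerebella, and Alas2 was lower at P49 than at P21 in null animals (-3.27 ± 0.59, limma adjusted p = 0.0105). S100a8, a neutrophil gene, read 10.56 on null P21 replicate 1, its highest of the 12 arrays. Without that array the counts of the 10 genes were 0 at P21, 4 for the difference between ages and 5 for age in null, the same as with it. Without the arrays that go against their sex label only null P21 replicate 1 remained in its group, again no gene was called, and Tyrobp (0.98), Trem2 (2.10) and Clec7a (0.99) stayed higher in null cerebella.

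**Figure D3:**
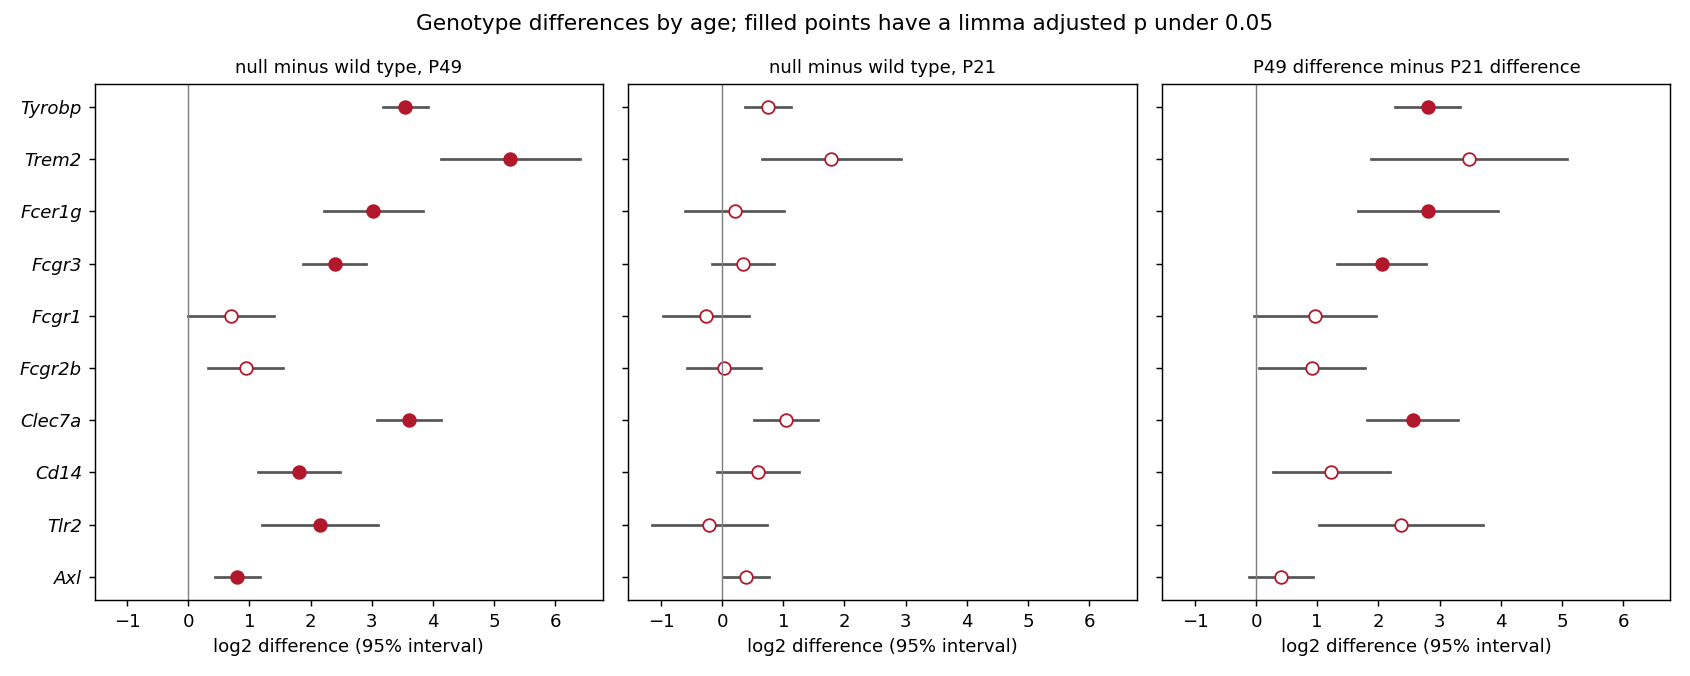
Log2 differences of the 10 genes with 95% intervals, as null minus wild type at P49, null minus wild type at P21, and the first minus the second, from left to right. Filled points have a limma adjusted p under 0.05, which holds for 8 genes at P49, for none at P21, and for Tyrobp, Fcer1g, Fcgr3 and Clec7a in the difference between ages.

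The difference between the ages was tested directly, as the P49 difference minus the P21 difference. It was called for 4 of the 10 genes, all with the larger difference at P49, against 0.168% of all probe sets with a called positive value and 0.0884% with a called negative one. These were Tyrobp at 2.80 ± 0.24 (limma, adjusted p = 0.000253), Clec7a at 2.56 ± 0.34 (0.00701), Fcgr3 at 2.05 ± 0.34 (0.0247) and Fcer1g at 2.82 ± 0.53 (0.0493). The value was positive for all 10 genes. For Trem2 it was 3.48 ± 0.75 (limma, adjusted p = 0.106), for Tlr2 2.37 ± 0.62 (0.234) and for Cd14 1.23 ± 0.44 (0.543). For Fcgr1 it was 0.97 ± 0.46 (0.727), for Fcgr2b 0.91 ± 0.40 (0.681) and for Axl 0.41 ± 0.24 (0.786). For these 6 genes a change of the difference with age was not shown, and no further Fcgr2b probe set was called. The calls of Fcer1g and Fcgr3 were fragile. Fcer1g kept its call only without null P21 replicate 1 or 2 among the 12 arrays left out in turn, and its adjusted p without any other array ran from 0.0503 to 0.200. Fcgr3 lost its call without any wild-type array (0.0521 to 0.0754) or without null P49 replicate 2 or 3 (0.112 and 0.113). Fcer1g also lost its call on values as deposited, with arrays scaled to 1 median, with a pseudocount of 1 and without the variance trend (0.0542 to 0.168). Without the 4 arrays against their sex label, null P21 was represented by replicate 1 alone, which was assumed to vary like the other groups. In that fit Tyrobp was called (2.70, adjusted p = 0.00456), Clec7a had an adjusted p of 0.0635 and Fcgr3 of 0.156. Fcer1g was called there too (4.23, adjusted p = 0.00456), but its single null P21 array was the one with the lowest Fcer1g reading of all 12.

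Within null animals the receptors and adaptors were higher at P49 than at P21. All 10 genes had every null P49 value above every null P21 value, against 8.8% of all probe sets. Of the 10, 5 were called as higher at P49, against 1.21% of all probe sets that rose and 1.26% that fell. Tyrobp differed by 2.70 ± 0.17 (limma, adjusted p = 6.41e-06) and had the smallest p of all probe sets in this comparison as well. The others were Clec7a at 2.65 ± 0.24 (adjusted p = 6.51e-05), Trem2 at 3.81 ± 0.53 (0.00189), Fcgr3 at 1.68 ± 0.24 (0.00210) and Fcer1g at 2.57 ± 0.38 (0.00272). Tlr2 (1.58 ± 0.44, adjusted p = 0.0847), Cd14 (1.18 ± 0.31, 0.0690), Fcgr1 (0.74 ± 0.33, 0.301), Fcgr2b (0.74 ± 0.28, 0.232) and Axl (0.63 ± 0.17, 0.0783) missed the threshold. Fcgr2b was called by 1435477_s_at alone (2.11 ± 0.40, adjusted p = 0.0137). The Trem2 call rests on 1 of 2 probe sets, since with both averaged the difference was 1.64 (adjusted p = 0.178), and the null P21 mean of 8.41 lay within the Y-linked range, so its size is uncertain. Without the arrays against their sex label, 2 null P49 arrays stood against 1 null P21 array whose spread was taken from the other groups, and the count was 6, with Axl added (1.01, adjusted p = 0.0420). The null P49 arrays enter this comparison and the one between genotypes at P49, so the counts of both rest on the same 3 arrays.

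Within wild-type animals no such difference with age was detected. None of the 10 genes was called in either direction, against 0.0442% of all probe sets that rose and 0.234% that fell, and none had an unadjusted p under 0.05, against 1842 probe sets in all. The values ran from -0.78 ± 0.44 for Tlr2 (limma, adjusted p = 0.720) to 0.33 ± 0.53 for Trem2 (0.948), with a median of -0.14, and 3 of 10 were positive. For Tyrobp the 95% interval was -0.47 to 0.27. Only Fcgr3 had groups that did not overlap, lower at P49 (-0.37 ± 0.24), against 8.42% of all probe sets that did so in this direction.

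Across the 12 arrays the 10 genes varied together. Pearson's r between pairs of them ran from 0.469 for Fcgr2b with Tlr2 to 0.980 for Tyrobp with Clec7a over 45 pairs. These values describe arrays that share the split into null P49 and the rest. Within the null P49 group, replicate 1 was below the group mean for 9 of the 10 genes and replicate 3 above it for 8. The genes outside the set whose profile was most like that of Tyrobp over 12 arrays, among 20365 single-symbol probe sets, were Cyba (r = 0.983), a subunit of the phagocyte oxidase, Cd53 (0.982), a leukocyte tetraspanin, Lgals1 (0.980), a galactoside-binding lectin, Ctsd (0.979), a lysosomal protease, and C1qa (0.979), a chain of complement C1q. Axl had Lgals3bp (0.952), a secreted galectin-binding protein, Fxyd1 (0.946), a regulator of the sodium pump, Scamp2 (0.946), H2-D1 (0.945), a class I histocompatibility antigen, and Itpkb (0.944), an inositol trisphosphate kinase, as its nearest profiles.

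Of 35 listed related receptors and ligands, 30 had a probe set, and 3 rose and none fell at P49, with a median of 0.45. Over all probe sets 0.941% rose and 0.468% fell. The risers were Ly86 (1.81 ± 0.28, limma adjusted p = 0.00308), the secreted partner of the receptor Cd180, Apoe (0.85 ± 0.13, 0.00367), a lipoprotein that Trem2 binds, and Pros1 (1.16 ± 0.23, 0.0212), a ligand of the Axl relatives Tyro3 and Mertk. Pros1 lost its call without wild-type P49 replicate 2 (adjusted p = 0.0971) or any of the null P49 arrays (0.0541 to 0.128), and without the 4 arrays against their sex label (0.0523). Cd300a, an inhibitory receptor for phospholipids, differed by 0.89 ± 0.27 (adjusted p = 0.195). Gas6, the ligand of Axl, differed by 0.25 ± 0.10 (0.396). At P21 none of the 30 was called, with a median of 0.14.

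Downstream of the ITAM and ITIM receptors, 39 of 46 listed genes had a probe set, and 7 rose and none fell at P49, against 0.941% and 0.468% of all probe sets, with a median of 0.64. The 5 with the smallest p were Cyba (2.45 ± 0.22, limma adjusted p = 3.08e-05), Fyb (3.72 ± 0.55, 0.00220), a scaffold that links receptors to integrins, Itgb2 (2.65 ± 0.42, 0.00367), the beta chain of the phagocyte integrins, Blnk (1.78 ± 0.29, 0.00508), an adaptor that Syk phosphorylates, and Vav1 (3.26 ± 0.56, 0.00760), a signalling protein of blood cells. Cyba read 12.24, 12.62 and 12.75 in null P49 cerebella against 10.46, 9.74 and 10.07 in wild-type P49 cerebella. Vav1 was dim, at 8.02, 9.20 and 8.29 in null P49 against 4.96, 5.40 and 5.36 in wild-type P49 cerebella, and its call was lost without null P49 replicate 2 (adjusted p = 0.0662). At P21 none of the 39 was called, with a median of 0.11. The difference between ages was called for Cyba (1.84 ± 0.31, adjusted p = 0.0281) and Vav1 (5.22 ± 0.79, 0.0147), and for Vav1 it combined the P49 rise with a P21 value of -1.95 ± 0.56 (adjusted p = 0.430). Without any 1 of 4 arrays, wild-type P21 replicate 1 or 3 or null P49 replicate 2 or 3, the Vav1 difference between ages lost its call (0.0516 to 0.0667), as it did without the 4 arrays against their sex label (4.82, adjusted p = 0.145). That subset also ended the call of Cyba (2.13, adjusted p = 0.0851). Cyba kept its call only without null P21 replicate 2 or without the first replicate of either P49 group, and had adjusted p from 0.0505 to 0.138 without any other array.

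Downstream of the toll-like receptors no gene was called at P49 in the fit reported here. Of all probe sets 0.941% rose and 0.468% fell, so a short list without a call is not set apart by it. Of 26 listed genes 18 had a probe set, and their median difference was 0.15. Unc93b1, which carries endosomal toll-like receptors to their compartment, came nearest (1.18 ± 0.29, limma adjusted p = 0.0725) and passed the threshold in 6 alternatives, with adjusted p from 0.0101 to 0.0484. It was followed by the NF-kappaB subunit Relb (2.22 ± 0.78, 0.309), the NF-kappaB inhibitor Nfkbia (0.42 ± 0.17, 0.430), the kinase adaptor Tab2 (0.20 ± 0.09, 0.491) and Tollip (-0.20 ± 0.10, 0.582). At P21 none of the 18 was called either, with a median of 0.07.

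**Figure D4:**
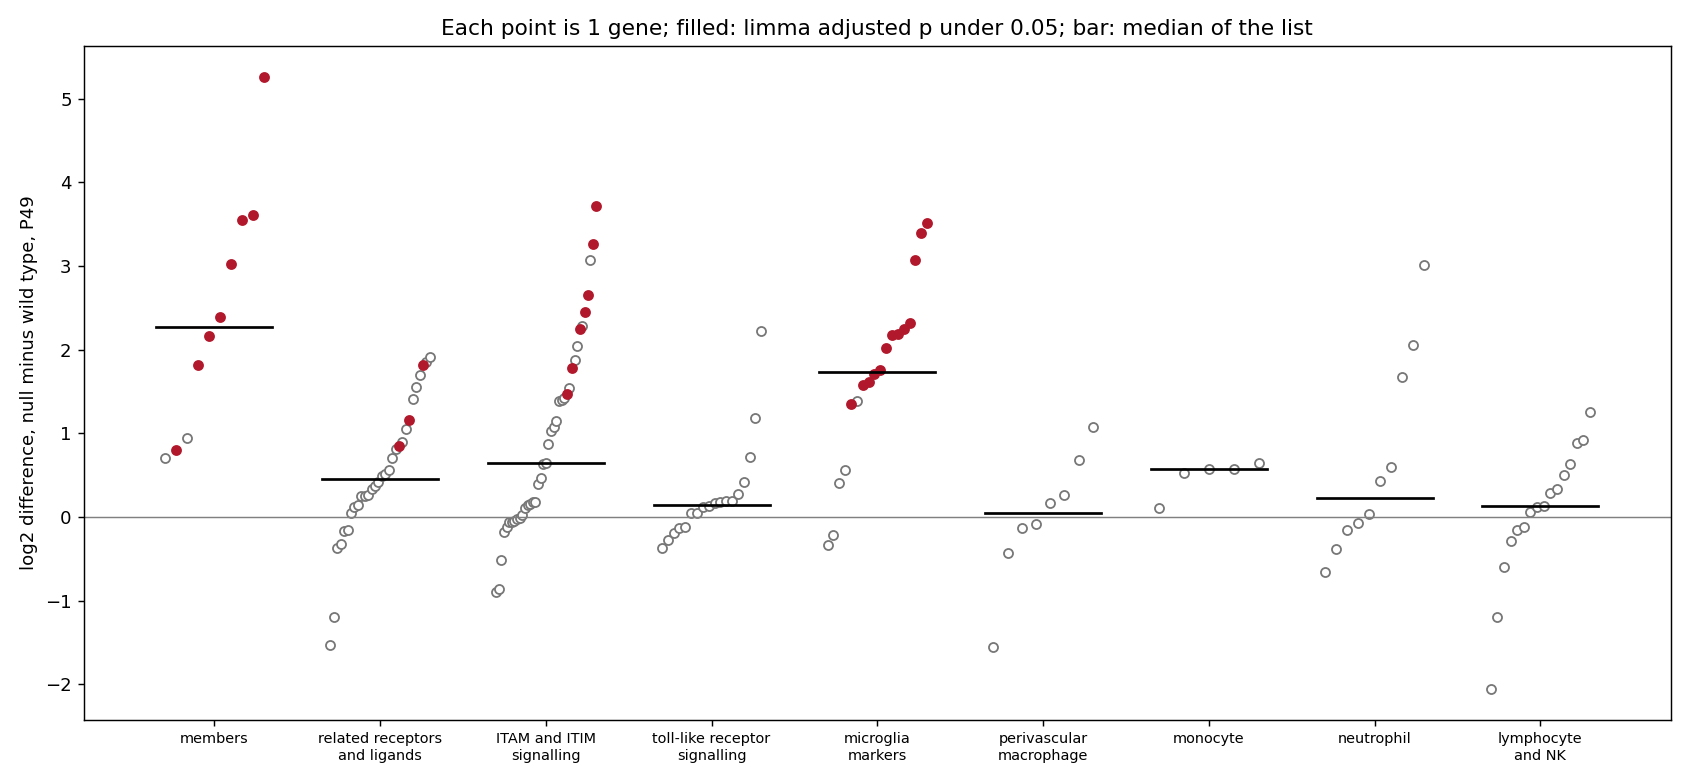
Log2 difference at P49, null minus wild type, for each gene of the set and of 8 lists, with 1 point per gene, filled where the limma adjusted p was under 0.05, and a bar at the median of the list. The 10 genes have a median of 2.27 and microglia markers of 1.73, and no point is filled in the toll-like receptor, perivascular macrophage, monocyte, neutrophil and lymphocyte lists.

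Markers of microglia moved with the receptors. Of 21 listed, 18 had a probe set, and 13 rose and none fell at P49, against 0.941% and 0.468% of all probe sets, with a median of 1.73. C1qc (3.52 ± 0.18, limma adjusted p = 1.64e-07), C1qa (3.39 ± 0.18, 1.85e-07) and C1qb (3.06 ± 0.16, 1.64e-07), the chains of complement C1q, differed most, and the protease Ctss (2.19 ± 0.18) and the growth factor receptor Csf1r (1.35 ± 0.16, the smallest of the 13) rose as well. P2ry12 (0.56 ± 0.19, adjusted p = 0.276), Itgam (1.38 ± 0.58, 0.457), Sall1 (0.40 ± 0.68, 0.938), Tmem119 (-0.22 ± 0.24, 0.881) and Selplg (-0.34 ± 0.26, 0.806) were not called. The summed intensity of the 18 genes was 131207 to 162151 in null P49 cerebella against 33866 to 36450 in wild-type P49 cerebella, and 51667 to 61728 in null P21 cerebella against 34073 to 42277 in wild-type P21 cerebella. The summed intensity of the 10 receptor and adaptor genes was 46696 to 57937 in null P49 against 9011 to 11432 in wild-type P49 cerebella, and 11996 to 15531 in null P21 against 10004 to 11254 in wild-type P21 cerebella. At P21, where none of the 10 was called, C1qb (1.27 ± 0.16) and C1qc (1.40 ± 0.18) were, each with a limma adjusted p of 0.0141. Neither kept its call without the 4 arrays against their sex label, which left only replicate 1 in null P21. On that array C1qb read 12.08 and C1qc 11.89, above every wild-type P21 value. Ptprc and Itgam are in both the microglia and the ITAM list. The part of microglial number in the rises was not tested.

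Markers of other immune cells held no call at P49. Only 0.941% of all probe sets rose and 0.468% fell, so lists this short are not set apart by holding none. None of 8 perivascular macrophage, 5 monocyte, 10 neutrophil, 16 lymphocyte and natural killer and 8 mast cell genes with a probe set had an adjusted p under 0.05, with medians of 0.04, 0.58, 0.23, 0.13 and -0.27. All 5 monocyte genes were positive, and their summed intensity was 9611 to 12582 in null P49 cerebella against 6561 to 8371 in wild-type P49 cerebella, most of it from the matrix genes Fn1 and Vcan. Perivascular macrophage genes summed to 4865 to 5196 in null P49 cerebella against 3280 to 5106 in wild-type P49 cerebella. By gene they ran from -1.55 for Lyve1 (limma adjusted p = 0.146) to 1.08 for Cbr2 (0.765), with 4 of 8 positive. Neutrophil genes summed to 2926 to 4540 in null P49 against 2291 to 2805 in wild-type P49 cerebella. Their differences ran from -0.66 to 3.02, with 6 of 10 positive. The largest was that of S100a8, which was dim and uncalled. It read 9.71, 8.82 and 8.80 in null P49 against 4.71, 5.36 and 8.22 in wild-type P49 cerebella, without overlap. Lymphocyte and natural killer genes summed to 3267 to 4070 in null P49 against 2984 to 4102 in wild-type P49 cerebella. Mast cell genes, which matter for Fcer1g because mast cells carry it, summed to 1626 to 2102 in null P49 against 1182 to 2809 in wild-type P49 cerebella. The mean over the 12 arrays lay below the 40th percentile of probe sets for 7 of the 8 perivascular macrophage, 3 of the 5 monocyte, 10 of the 10 neutrophil, 15 of the 16 lymphocyte and natural killer and 8 of the 8 mast cell genes. The part of such cells in the rises was not tested. Of 11 measured cerebellar markers 3 fell at P49, against 0.468% of all probe sets. These were the Purkinje cell genes Pcp2 (-0.63 ± 0.12, limma adjusted p = 0.0158), Calb1 (-0.92 ± 0.16, 0.00659) and Car8 (-0.94 ± 0.17, 0.00951). Of 9 astrocyte genes 2 rose, Gfap by 3.31 and Aqp4 by 0.93, against 0.941% of all probe sets. These changes stood beside the receptor rises on the same null P49 arrays.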

How the data were processed

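The values deposited by the authors are linear intensities, with 22690 probe sets per array including 64 controls. Their algorithm and scaling were not found in the labels or headers. Trimmed means were 5002 on all arrays. Ages follow the time point labels, although a protocol text states P21 for every animal. Sex-linked genes went against the sex label on 4 arrays. At most 33 values were identical in a pair of arrays.

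Values were transformed as log2(intensity + 16), and since array medians ran from 10.65 to 10.92 they were quantile normalized. A log2(value + 16) difference understates the change of dim genes. All 22626 non-control probe sets entered limma 3.58.1 (R 4.3.3) with a mean for each of the 4 groups and eBayes with a mean-variance trend, two-sided, with Benjamini-Hochberg adjustment over all of them, a threshold of 0.05 and no filter on low values. Under a filter at the 40th percentile (log2 9.93), 7 of the 10 genes would have passed. Of these, Clec7a lay below that level on 8 arrays, Fcer1g and Fcgr3 on 7 each and Cd14 on 4. Their means passed through the high null P49 readings, so the filtered alternatives are no independent check of these genes. All adjusted p-values are those of limma. A gene is counted by its probe set with the highest mean. Genes were named through the platform annotation, where 20380 probe sets had 1 symbol, 691 several and 1555 none. The files name no build. The fit was tested on simulated data, where it made 7 false calls at P49.

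The genes, lists and rules were chosen with earlier results of these data known. Named were all 10 genes, up to 5 genes with the smallest p at P49 from each of 3 lists, marker lists by their sums, and 5 genes most like Tyrobp and Axl each. Further marker genes were singled out after their values were seen. Alternatives were other normalizations, pseudocounts, filters, probe set rules and variance models, each array left out, a replicate block, and the 8 arrays that follow their sex label. Replicate numbers do not mark shared animals, per the labels. Samples were labelled as individual animals, so p-values measure the spread between animals only as far as those labels hold. Null P21 replicates 2 and 3 carried both Xist and Y-linked signal, and whether each holds RNA of a single animal was not tested. The number of arrays limits the precision.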

Additional observations from a re-analysis of the deposited data

Results flagged for a closer look

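The difference between ages is the P49 minus the P21 difference of null and wild-type cerebella. Its test passed the threshold for 6 genes of the set and the ITAM list, given here. The same test passed for 4 of 18 measured microglia markers. It also passed for 1 of 9 astrocyte genes, Gfap (2.83, limma adjusted p = 0.000253). Such calls were therefore not confined to the receptors, the adaptors and their signalling genes. The adaptor Tyrobp had 3.55 at P49 and 0.75 at P21, 2.80 apart (limma, adjusted p = 0.000253). For Fcer1g the values were 3.03 and 0.21, 2.82 apart (0.0493), with 3 of 3 null P49 arrays above all wild-type P49 arrays and overlap at P21. Fcgr3 had 2.39 at P49 and 0.34 at P21, 2.05 apart (0.0247). Clec7a had 3.60 and 1.04, 2.56 apart (0.00701). Among the ITAM genes, Vav1 had 3.26 at P49 and -1.95 at P21, 5.22 apart (0.0147). Its wild-type mean at P49 was 5.24, within the range of Y-linked probe sets without their transcript, so the size is uncertain. Cyba had 2.45 at P49 and 0.61 at P21, 1.84 apart (0.0281). With arrays left out 1 at a time, Fcer1g, Fcgr3, Vav1 and Cyba lost these calls without several single arrays, as given above. Tyrobp and Clec7a kept them.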

How the results depend on the processing

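At P49, Tyrobp, Trem2, Fcer1g, Fcgr3 and Clec7a kept their calls in each alternative run on them, with adjusted p up to 4.61e-05, 0.0419, 0.00726, 0.00142 and 9.39e-05. Over the 10 genes 213 of 234 alternative P49 values kept direction and side of the threshold, 20 lost the call and 1, Fcgr2b averaged over its probe sets, gained it. The P49 count of 8 ran from 5 to 8 when 1 array was left out, and was 5 without null P49 replicate 2 or 3. The count of 4 for the difference between ages ran from 2 to 4 when 1 array was left out and was 2 without the arrays against their sex label. The replicate numbers do not pair animals (correlations of same-numbered deviations from -0.072 to 0.036). With a replicate block the difference between ages had 2 calls and P49 had 6, and the counts of P21 (0), age in null (5) and age in wild type (0) did not move. At P21 and for age in wild type the count stayed at 0 in all 24 alternatives. No direction changed at P49. Besides single arrays, Axl lost its P49 call with arrays scaled to 1 median (0.0524), without the variance trend (0.103), with averaged probe sets and with the block (0.0605), and Tlr2 without the trend (0.0509) and with the block (0.0581). Trem2 lost the call for age in null with averaged probe sets (0.178) and gained that for the difference between ages with a pseudocount of 64 (0.0365).

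Directions turned only in uncalled values. Averaging probe sets gave Axl -0.48 for age in null and -0.49 for the difference between ages. Leaving out 1 array gave ranges that span 0 for 3 genes at P21, -0.079 to 0.71 for Fcer1g, -0.22 to 0.27 for Fcgr2b and -0.50 to 0.20 for Tlr2. For age in wild type such ranges were -0.20 to 0.030 for Tyrobp, -0.0027 to 0.52 for Trem2, -0.43 to 0.081 for Fcgr2b, -0.022 to 0.22 for Clec7a and -0.26 to 0.29 for Cd14. Without the arrays against their sex label, P21 values were -1.03 for Fcer1g, -0.55 for Fcgr2b and 0.58 for Tlr2, and Trem2 had -0.0022 for age in wild type. On values as deposited Fcgr2b was -0.035 at P21. The cause was not tested.

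Counts over all probe sets moved more. They were 319 at P49 (148 to 500 over the alternatives), 7 at P21 (0 to 16), 58 for the difference between ages (15 to 84), 559 for age in null (128 to 854) and 63 for age in wild type (14 to 134). The ITAM count of 7 ran from 2 to 9, with 2 under the filter, which tests fewer genes, and 4 without null P49 replicate 2. The toll-like receptor count of 0 became 1 (Unc93b1) under both filters, with robust variance, on the arrays compared alone, and without null P21 replicate 1 or 2. The difference between ages could not be run on the arrays of 2 groups alone.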
